A study of Mus musculus with 20 samples.

Results

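The thrombospondins and a set of other matricellular genes were examined in plantaris muscle of old mice. The members were the 10 rows of the count table named Thbs1, Thbs2, Thbs3, Thbs4, Comp, Tnc, Tnn, Sparc, Postn and Spon1, out of 22660 rows. All 10 names had a row of their own. Several of them had been picked for a large rise with overload or treatment, so their values between groups are a description, and calls by the tests are given only as counts beside those over all genes, from which nothing is read. Total RNA came from 20 mice of 2 years, 5 in each of 4 groups, and each library was a different mouse. The study's methods give them as male C57BL/6J. The vehicle sham mice had the skin opened without removal of muscle and were gavaged with a polyethylene glycol vehicle. The D + Q sham mice had the same surgery and were gavaged with dasatinib at 5 mg/kg, a tyrosine kinase inhibitor, together with quercetin at 50 mg/kg, a plant flavonoid, a pair of agents used to clear senescent cells. The vehicle MOV and D + Q MOV mice received the same gavages after mechanical overload (MOV), in which part of the soleus and gastrocnemius was cut away so that the plantaris carried their load. Gavage was on days 7 and 10 and muscle was collected on day 14 after surgery, although the deposited description of the design gives the second gavage of the sham mice as day 14. If that description holds, the time from the second gavage to collection differed between sham and MOV mice and cannot be told apart from surgery. All groups shared the skin incision, and effects of load and of the removal of neighbouring muscle cannot be told apart in this design.

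Matricellular proteins are secreted into the extracellular matrix but do not build its fibres. They bind collagens, growth factors and cell surface receptors, and they change how cells attach to the matrix around them. Most are scarce in resting adult tissue and are made during development, healing and mechanical loading. The thrombospondins are multimers that bind calcium. Thbs1 and Thbs2 form trimers that restrain blood vessel growth through CD36 and CD47, and Thbs1 also activates latent TGF-beta. Thbs3, Thbs4 and Comp form pentamers, and Thbs4 and Comp are typical of tendon and of the attachment of muscle to tendon. The tenascins (Tnc and Tnn), periostin (Postn), SPARC (Sparc) and F-spondin (Spon1) belong to other families with the same mode of action.

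The total count per mouse ranged from 17887532 to 26234518. The TMM factors, which correct for a few genes taking a large share of the reads, lay between 0.830 and 0.885 in sham mice and between 1.06 and 1.23 in MOV mice. CPM below is the count scaled to the TMM-corrected total of the library, in the usual unit. Genes of the myofibre (Ckm, Acta1, Mb, Myh4, Myh1 and Tnnt3) together reached between 67193 and 140613 CPM in each mouse. The 10 members together took 0.0160% ± 0.00207 (SD, n = 5) of all counts in vehicle sham mice and 0.0223% ± 0.00465 in D + Q sham mice. They took 0.479% ± 0.118 in vehicle MOV mice and 0.603% ± 0.137 in D + Q MOV mice.

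All 10 genes lie apart from each other in the mouse genome, and their positions are given on GRCm39 with the GENCODE annotation. Thbs1 spans chr2:117941974-117957616 on the plus strand, Thbs2 chr17:14885761-14914528 on the minus strand, Thbs3 chr3:89122461-89134144 on the plus strand, Thbs4 chr13:92888095-92931501 on the minus strand and Comp chr8:70826192-70834716 on the plus strand. Tnc spans chr4:63878014-63965443 and Tnn chr1:159912599-159981150, both on the minus strand. Sparc spans chr11:55285317-55314067 on the minus strand, Postn chr3:54268501-54298471 on the plus strand and Spon1 chr7:113364999-113642610 on the plus strand. Exons of Thbs3 share 347 bases with the protein-coding gene Mtx1 on the other strand, and exons of Thbs1, Comp, Tnc and Postn share 719, 144, 303 and 80 bases with antisense long non-coding RNAs. Whether reads were counted by strand is not stated, so reads from these shared bases cannot be assigned to either gene with certainty.

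The 10 genes moved together with MOV, so the 250 bases before the start of the canonical transcript of each were searched on both strands for a few motifs chosen after the values had been seen. For Thbs3, Thbs4, Sparc and Spon1 this transcript starts inside the span of the gene given above, since other transcripts of the gene start further upstream, so that these windows overlap the gene itself and are not shown. These were the TATA box (TATAAA), the CCAAT box (CCAAT), the AP-1 site of FOS and JUN (TGANTCA), the TEAD site of the YAP pathway (GGAATG), the SMAD element (CAGACA) and the CArG box of serum response factor. The windows are shown for Thbs1 and Thbs2 and for the genes with the largest rises, Tnc, Tnn and Postn, with any motif match in capitals and each window written 5′ to 3′ along its gene. They are chr2:117941724-117941973 for Thbs1 and chr3:54268251-54268500 for Postn on the plus strand. They are chr17:14914529-14914778 for Thbs2, chr4:63965444-63965693 for Tnc and chr1:159981151-159981400 for Tnn on the minus strand.
Thbs1: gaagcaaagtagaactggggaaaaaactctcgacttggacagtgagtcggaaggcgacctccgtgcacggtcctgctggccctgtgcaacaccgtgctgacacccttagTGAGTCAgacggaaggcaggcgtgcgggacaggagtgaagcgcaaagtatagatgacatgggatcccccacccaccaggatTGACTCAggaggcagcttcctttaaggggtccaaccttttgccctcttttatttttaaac
Thbs2: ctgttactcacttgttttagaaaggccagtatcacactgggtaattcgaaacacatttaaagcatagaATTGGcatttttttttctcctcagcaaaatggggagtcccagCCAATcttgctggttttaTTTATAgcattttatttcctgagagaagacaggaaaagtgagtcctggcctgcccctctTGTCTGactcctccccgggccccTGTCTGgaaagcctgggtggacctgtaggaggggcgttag
Tnc: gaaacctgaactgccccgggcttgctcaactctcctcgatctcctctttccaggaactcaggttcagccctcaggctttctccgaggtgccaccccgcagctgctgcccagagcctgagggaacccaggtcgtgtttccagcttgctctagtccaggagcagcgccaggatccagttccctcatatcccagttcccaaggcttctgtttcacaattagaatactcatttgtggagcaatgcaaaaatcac
Tnn: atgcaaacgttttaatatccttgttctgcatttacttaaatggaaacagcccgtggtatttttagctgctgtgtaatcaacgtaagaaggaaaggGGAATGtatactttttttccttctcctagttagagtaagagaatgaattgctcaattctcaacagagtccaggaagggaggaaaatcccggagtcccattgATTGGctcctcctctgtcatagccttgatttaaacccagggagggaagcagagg
Postn: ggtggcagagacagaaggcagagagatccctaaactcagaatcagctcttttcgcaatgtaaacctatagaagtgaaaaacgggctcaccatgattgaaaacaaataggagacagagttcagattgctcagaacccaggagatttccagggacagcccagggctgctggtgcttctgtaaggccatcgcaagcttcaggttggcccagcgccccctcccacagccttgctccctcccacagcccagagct
The Thbs1 window held 2 AP-1 matches, which began 141 and 60 bases before the transcript start, and it was the only one of the 10 with such a match. Of 21770 promoter windows of the same length, 6.174% held an AP-1 match. The CCAAT box was found in 4 members (Thbs2, Thbs3, Comp and Tnn) and in 36.5% of all windows. The SMAD element was found in Thbs2, Thbs4 and Sparc and in 15.6% of all windows, and the TEAD site was found in Thbs4, where 2 matches overlapped each other, and in Tnn, against 12.11% of all windows. The TATA box was found in Thbs2 and Spon1 and in 11.92% of all windows. The windows of Tnc and Postn held none of the 6 motifs, and no member held a CArG box, which was present in 1.396% of all windows. A match is a run of letters and not a bound site.

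Read per length of exon, Sparc and Thbs4 were the leading members in resting muscle, and Postn joined them with overload. The level per length is given as RPKM, CPM per kilobase of exon. In vehicle sham muscle Sparc stood at 25.0 ± 3.57 RPKM (SD, n = 5) and Thbs4 at 11.0 ± 1.07 RPKM, and neither overlapped its neighbours in the order. Comp (1.29 ± 0.286 RPKM), Thbs3 (1.16 ± 0.406), Thbs2 (1.02 ± 0.113), Thbs1 (0.829 ± 0.0888), Postn (0.756 ± 0.454) and Spon1 (0.448 ± 0.0693) followed. Each of these down to Postn overlapped the next, while Spon1 did not overlap Tnc. Tnc (0.212 ± 0.0739 RPKM) and Tnn (0.00799 ± 0.0130 RPKM) came last. In D + Q sham muscle the order began in the same way, with Sparc at 33.4 ± 6.93 RPKM and Thbs4 at 12.8 ± 1.22 RPKM, and Postn (2.12 ± 1.75 RPKM) overlapped both Comp above it and Thbs2 below it.

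In vehicle MOV muscle Sparc stood at 332.2 ± 57.3 RPKM, above Postn at 168.7 ± 34.5 RPKM and Thbs4 at 162.8 ± 34.9 RPKM, which overlapped. Thbs1 (28.7 ± 12.7 RPKM), Thbs2 (23.8 ± 5.38), Tnc (20.2 ± 7.84), Thbs3 (13.1 ± 3.23) and Comp (10.6 ± 3.10) formed a second tier in which each overlapped the next. Spon1 (3.96 ± 0.589 RPKM) and Tnn (3.40 ± 1.25 RPKM) were the lowest. The order was the same in D + Q MOV muscle, from Sparc at 400.0 ± 50.1 RPKM and Postn at 207.0 ± 53.4 RPKM down to Tnn at 3.84 ± 1.75 RPKM. The choice of length mattered for some members. With the longest transcript in place of all exons, vehicle sham levels were 41.9 RPKM for Sparc, 1.27 for Postn and 0.844 for Spon1, and Postn moved up the order to the fifth place in vehicle sham and to the third, above Comp, in D + Q sham muscle. On that length Postn at 347.0 RPKM no longer overlapped Thbs4 at 200.2 RPKM in D + Q MOV muscle.

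The first comparison asks what 14 days of MOV did to these genes in each treatment. Every member was higher in every MOV mouse than in every sham mouse of the same treatment, from 8.23-fold for Comp and 8.85-fold for Spon1 to 95.8-fold for Tnc and 225.0-fold for Postn with vehicle, with Tnn nearly absent at rest. The levels of single mice are shown in the plot of CPM by gene.

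**Figure D1:**
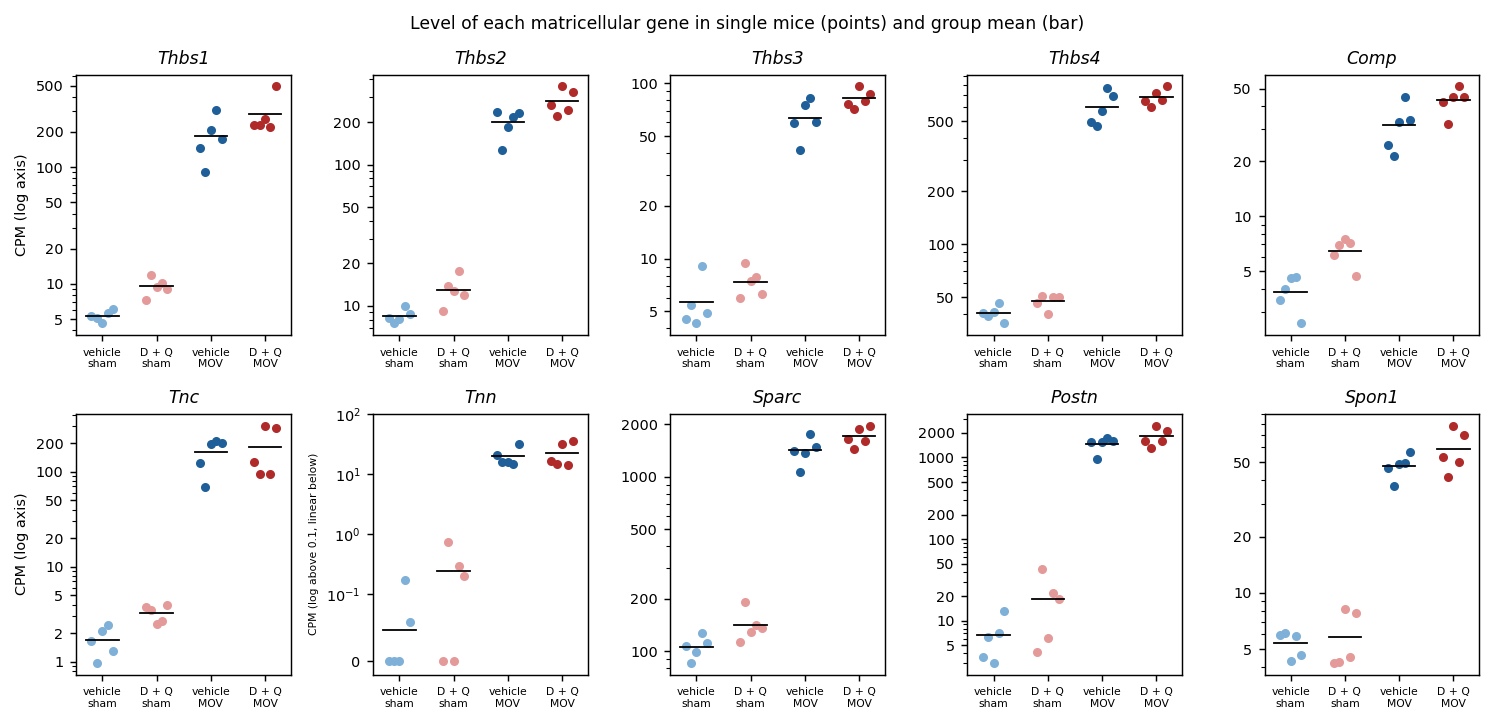
CPM of the 10 matricellular genes in single mice (points, 5 per group) with the group mean (bar), on log axes that differ between panels (the axis of Tnn is linear below 0.1). In each panel the MOV mice lie above the sham mice of both treatments, and Tnn is at 0 in 3 vehicle sham mice and 2 D + Q sham mice.

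Among the thrombospondins, the trimers rose more than the pentamers on this scale. Thbs1, the activator of latent TGF-beta, stood at 5.28, 5.12, 4.59, 5.67 and 6.11 CPM in vehicle sham mice 1 to 5 and at 144.9, 90.6, 208.5, 310.6 and 172.8 CPM in vehicle MOV mice 1 to 5. In D + Q mice it stood at 7.22, 11.9, 9.45, 10.1 and 8.99 CPM in sham and at 227.9, 227.6, 256.0, 220.1 and 491.7 CPM in MOV muscle. The sham mice were tightly grouped, and the MOV mice spread more than 3-fold in the vehicle group, with mouse 2 lowest and mouse 4 highest. Thbs1 was higher in MOV by 5.12 ± 0.347 (log2 fold change ± SE) with vehicle and by 4.94 ± 0.303 with D + Q. Thbs2, which like Thbs1 restrains vessel growth and also shapes collagen fibrils, stood at 8.22, 7.53, 8.03, 10.0 and 8.75 CPM in vehicle sham mice and at 235.2, 126.9, 185.1, 218.4 and 230.9 CPM in vehicle MOV mice. In D + Q mice it stood at 9.26, 13.8, 12.7, 17.6 and 11.9 CPM in sham and at 264.1, 220.9, 357.4, 243.2 and 326.1 CPM in MOV muscle. Again mouse 2 was the lowest of the vehicle MOV group. The log2 fold change was 4.56 ± 0.175 with vehicle and 4.47 ± 0.201 with D + Q.

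Thbs4, the pentamer of tendon and of muscle attachments, was by far the most abundant thrombospondin in all 4 groups. It stood at 40.3, 38.8, 41.4, 46.2 and 35.4 CPM in vehicle sham mice and at 496.5, 470.0, 569.0, 767.4 and 699.1 CPM in vehicle MOV mice. With D + Q it stood at 46.0, 50.7, 40.0, 49.8 and 50.0 CPM in sham and at 649.5, 604.2, 721.3, 660.4 and 788.6 CPM in MOV muscle. Of the 10, Thbs4 had the lowest biological coefficient of variation in the fit of all 20 mice, and the log2 fold changes of 3.90 ± 0.145 and 3.89 ± 0.0882 were close to equal. Thbs3, a pentamer best known from cartilage and bone, ranged from 4.27 to 9.09 CPM in vehicle sham mice and from 41.7 to 82.3 CPM in vehicle MOV mice. It ranged from 5.97 to 9.45 CPM in D + Q sham mice and from 71.7 to 96.2 CPM in D + Q MOV mice, with log2 fold changes of 3.51 ± 0.249 and 3.52 ± 0.114. Comp, which carries collagens together during fibril assembly, ranged from 2.58 to 4.63 CPM in vehicle sham and from 21.4 to 45.2 CPM in vehicle MOV mice. It ranged from 4.67 to 7.50 CPM in D + Q sham and from 32.0 to 51.5 CPM in D + Q MOV mice. Its log2 fold changes of 3.04 ± 0.225 with vehicle and 2.78 ± 0.139 with D + Q were the smallest of the 10 in both treatments.

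The tenascins were the scarcest members at rest and were among the members with the largest rises. Tnc, a glycoprotein of the myotendinous junction that loosens cell adhesion, stood at 1.65, 0.978, 2.10, 2.43 and 1.29 CPM in vehicle sham mice and at 124.5, 68.4, 198.1, 211.5 and 203.1 CPM in vehicle MOV mice. With D + Q it stood at 3.77, 3.54, 2.49, 2.67 and 3.91 CPM in sham and at 127.4, 94.2, 305.4, 94.8 and 285.7 CPM in MOV muscle. The D + Q MOV mice fell into 3 lower and 2 higher values. The log2 fold change was 6.58 ± 0.426 with vehicle and 5.83 ± 0.518 with D + Q. Tnn, known also as tenascin-W and found mainly around bone and tendon, had 0, 0, 0, 3 and 1 counts in the 5 vehicle sham mice and 0, 12, 0, 6 and 4 counts in the 5 D + Q sham mice. In MOV muscle it had 512, 301, 343, 332 and 758 counts with vehicle and 423, 376, 738, 311 and 788 counts with D + Q. Tnn was thus barely detected at rest and was present in every MOV mouse. Summed over the group and scaled to library size, its MOV level was 447.1 times the sham level with vehicle (95% interval 174.4 to 1642 from counting error alone) and 96.5 times with D + Q (63.6 to 154.3). The fitted log2 fold changes of Tnn (8.60 and 6.61) rest on those few sham counts and on the prior count, and without vehicle sham mouse 4 the first became 9.95.

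In MOV muscle Postn and Sparc had the highest CPM of the 10. Postn, a TGF-beta target that binds integrins and helps to cross-link collagen, stood at 3.63, 6.33, 3.06, 7.06 and 13.0 CPM in vehicle sham mice and at 1526, 959.4, 1558, 1753 and 1589 CPM in vehicle MOV mice. With D + Q it stood at 4.13, 42.4, 6.09, 21.6 and 18.4 CPM in sham and at 1590, 1312, 2451, 1570 and 2139 CPM in MOV muscle. The spread was wide among sham mice, above all with D + Q, and narrower among MOV mice, where vehicle mouse 2 stood lowest. Its log2 fold change was 7.81 ± 0.429 with vehicle and 6.66 ± 0.666 with D + Q. Sparc, a collagen-binding protein of remodelling tissue, ranged from 86.2 to 127.4 CPM in vehicle sham and from 1069 to 1752 CPM in vehicle MOV mice. It ranged from 113.8 to 191.8 CPM in D + Q sham and from 1442 to 1961 CPM in D + Q MOV mice, with log2 fold changes of 3.74 ± 0.140 and 3.62 ± 0.141. Spon1, an F-spondin best known for guiding axons, ranged from 4.33 to 6.10 CPM in vehicle sham and from 37.1 to 56.8 CPM in vehicle MOV mice. It ranged from 4.24 to 8.19 CPM in D + Q sham and from 41.6 to 78.3 CPM in D + Q MOV mice, with log2 fold changes of 3.15 ± 0.126 and 3.36 ± 0.263.

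**Figure D2:**
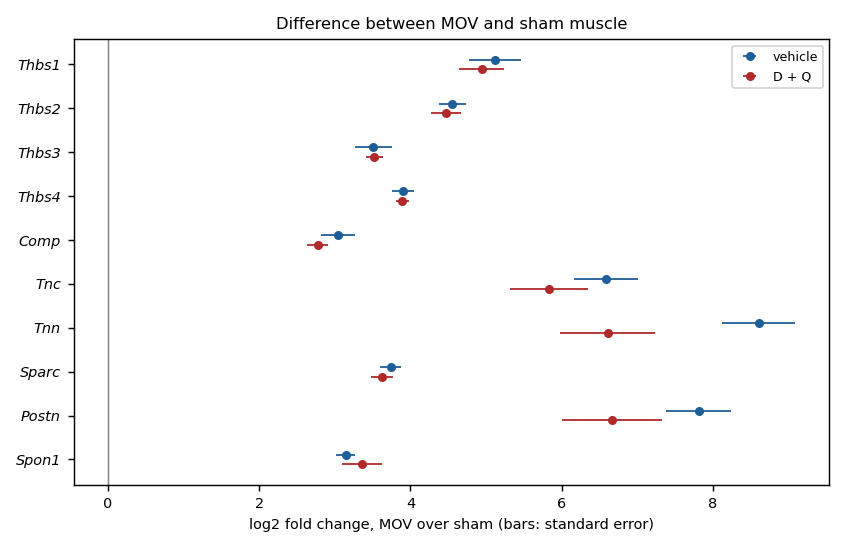
Log2 fold change of MOV over sham muscle for the 10 genes, with vehicle (blue) and with D + Q (red), each from 5 against 5 mice. Bars are standard errors, and the values run from 2.78 for Comp with D + Q to 8.60 for Tnn with vehicle.

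By edgeR's quasi-likelihood test with Benjamini-Hochberg adjustment at 0.05, all 10 members were called higher in MOV in each treatment. Of all genes tested, 30.7% were called higher with vehicle and 34.4% with D + Q, and nothing is read from the difference because the members had been picked for this rise. All 10 had MOV mice above the sham mice without overlap, which held for 23.8% of all genes with vehicle and 26.5% with D + Q. The median of the 10 on the log2 scale was 4.23 with vehicle and 4.18 with D + Q, where all genes tested had -0.015 and 0.023. With vehicle, Tnn passed the minimum of 10 counts in at least 5 mice only through its MOV mice and therefore had to differ. With D + Q it passed almost only through its MOV mice, since sham mouse 2 had 12 counts. When libraries were scaled by total count alone, the median of all genes shifted to 0.36 with vehicle and 0.39 with D + Q and the share of calls that were higher went from 50.8% to 84.1% and from 52.6% to 83.5%. The members' values are relative to that median, and all 10 stayed called higher in that scaling.

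Marker transcripts of several cell types moved along with the members. Since whole muscle was sequenced, a change in the number of cells of a type and a change in RNA per cell cannot be told apart. Marker genes of fibroblasts (Pdgfra, Dpt, Pi16, Ly6a and Col15a1) were higher in MOV for 5 of 5 in each treatment, and their summed level ranged from 106.7 to 143.2 CPM in vehicle sham, 125.0 to 176.3 in D + Q sham, 330.6 to 730.8 in vehicle MOV and 524.5 to 606.0 in D + Q MOV mice. Macrophage markers (Adgre1, Cd68, Csf1r, Mrc1 and Lyz2) were also higher for 5 of 5 in each treatment, from between 39.3 and 113.8 CPM in sham to between 188.5 and 580.2 CPM in MOV muscle. Tendon markers (Scx, Tnmd, Mkx, Fmod and Chad) were higher for 4 of 5 in each treatment, from between 41.1 and 79.3 CPM to between 153.4 and 316.1 CPM. Tnmd, the tendon gene with the largest change, was higher by 3.83 ± 0.234 with vehicle (edgeR adjusted p = 1.8e-07) and by 4.09 ± 0.226 with D + Q (edgeR adjusted p = 1.4e-07), whereas Chad did not pass the test in either. Cartilage markers (Acan, Col2a1 and Sox9) were higher for 3 of 3 in each treatment, from at most 2.44 CPM in sham to between 10.3 and 26.0 CPM in MOV muscle. Of the 6 myofibre markers, 3 were lower with vehicle and 4 with D + Q, and their sum went from between 122767 and 140613 CPM to between 67193 and 95797 CPM. The markers did not move alike. With vehicle the mean of Myh4 went from 58291 to 19712 CPM, that of Acta1 from 23639 to 22544 CPM and that of Mb from 3858 to 4338 CPM. The study reported a shift from glycolytic to oxidative fibres with MOV in its D + Q experiment. In its time course of adult and old mice it reported no difference in fibre types between groups. The part of fibre type in these values was not tested. With total-count scaling 3 myofibre markers were lower in each treatment, and 3 were higher with vehicle and 2 with D + Q. No defining marker of these 5 lists was at 0 throughout a group, although Acan had counts in only 1 of 5 sham mice of each treatment. Acan thus passed the count minimum only through its MOV mice and had to differ. Endothelial, mural, satellite cell and Schwann cell lists had 3 of 5, 3 of 5, 3 of 4 and 1 of 3 genes higher in each treatment. Of 4 platelet markers, Pf4 and Itga2b were higher in each treatment, while Gp9 and Ppbp were too low to test and Gp9 was at 0 throughout the D + Q sham group. Of 3 adipocyte markers, 2 were lower with vehicle and 0 with D + Q by edgeR, where 2 passed unadjusted. The part of these cell types in the members' rise was not tested.

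Thbs4 stayed the main thrombospondin with MOV, while the shares of the others differed between sham and MOV muscle. Thbs4 gave most of the thrombospondin transcripts, counted per length, in each mouse, with 71.9% ± 1.68 (SD, n = 5) in vehicle sham, 65.7% ± 4.13 in D + Q sham, 68.4% ± 3.81 in vehicle MOV and 63.3% ± 2.58 in D + Q MOV mice. The Thbs1 share was 5.49% ± 0.931 in vehicle sham mice (4.65 to 7.03) and 11.6% ± 2.89 in vehicle MOV mice (8.14 to 15.3), without overlap. With D + Q it was 7.53% ± 0.925 in sham (6.22 to 8.60) and 14.6% ± 3.65 in MOV muscle (12.4 to 21.0), again without overlap. The Comp share went the other way, from 8.42% ± 1.36 to 4.37% ± 0.348 with vehicle and from 11.1% ± 2.11 to 4.95% ± 0.845 with D + Q, also without overlap. The Thbs2 share was 6.69% ± 0.643 and 10.1% ± 2.13 with vehicle and 7.94% ± 1.40 and 11.4% ± 1.33 with D + Q, in sham and MOV. The Thbs3 share was 7.47% ± 1.79 and 5.49% ± 0.786 with vehicle, with overlapping mice, and 7.72% ± 1.02 and 5.75% ± 0.497 with D + Q. These shares do not depend on the scaling of the library, but they are a description of values that share the contrast the members were picked on.

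**Figure D3:**
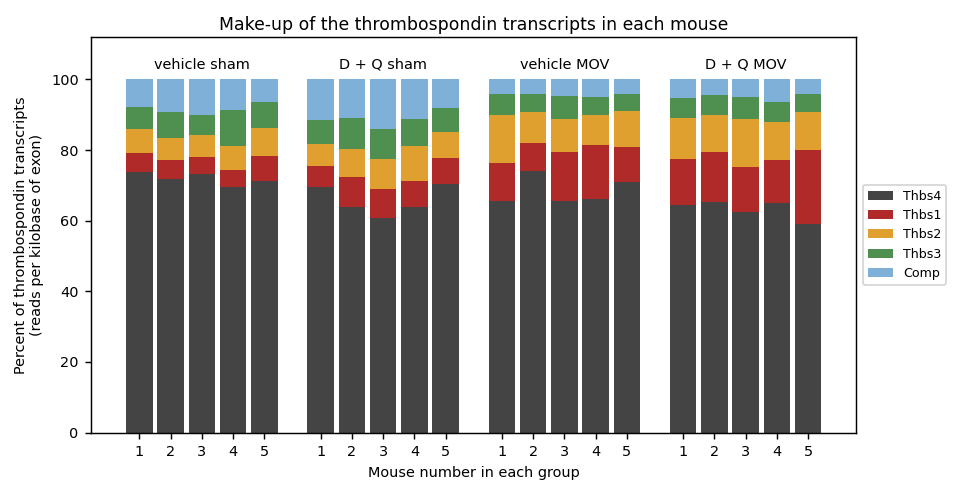
Share of each thrombospondin in the summed level per kilobase of exon of Thbs1, Thbs2, Thbs3, Thbs4 and Comp, as stacked bars of percent for single mice in the 4 groups. Thbs4 makes up 59.1% to 73.9% of each bar, and the Thbs1 segment is wider and the Comp segment narrower in MOV than in sham mice of the same treatment.

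The other genes of the matricellular pathway were taken from lists by role, which do not contain the members. Of 62 genes tested, 51 were higher and 7 lower in MOV with vehicle and 54 were higher and 5 lower in MOV with D + Q, by edgeR at an adjusted p under 0.05. Over all genes, 30.7% were higher and 29.8% lower with vehicle, and 34.4% and 30.9% with D + Q. The lists were chosen with earlier results of these data known, so nothing is read from this difference, nor from the counts of list genes given below. The falls were small, and with total-count scaling 1 was called lower with vehicle and 2 with D + Q, while 55 and 56 were called higher. With RLE scaling, which sets each library by the median ratio of its genes, 4 were called lower with vehicle.

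Among other matricellular genes (CCN, SPARC-related and small spondin genes, osteopontin and tenascin-X), 10 of 14 were higher and 2 lower with vehicle, and 12 were higher and 1 lower with D + Q. Their median change on the log2 scale was 2.44 and 2.60. Ccn4, a WNT-induced CCN protein, went from 0.272 ± 0.186 CPM (SD, n = 5) to 15.0 ± 4.99 CPM with vehicle, a log2 fold change of 5.77 ± 0.383. With D + Q it was higher by 6.12 ± 0.506. Single sham mice had at most 10 counts of Ccn4 with vehicle and 11 with D + Q. Ccn4 thus passed the count minimum almost only through its MOV mice and nearly had to differ, so no p is given. Spon2, a spondin of the same family as Spon1, was higher by 4.76 ± 0.346 with vehicle (edgeR adjusted p = 8.3e-07) and by 4.79 ± 0.194 with D + Q (edgeR adjusted p = 3.4e-10). Smoc1, a SPARC-related calcium-binding protein, was lower by 0.55 ± 0.227 with vehicle (edgeR adjusted p = 0.048) and by 0.70 ± 0.169 with D + Q (edgeR adjusted p = 0.0014), and Spock2, a SPARC-related proteoglycan, was lower by 0.53 ± 0.156 with vehicle (edgeR adjusted p = 0.0089). With total-count scaling neither passed the test, and with RLE scaling Smoc1 missed it with vehicle at an edgeR adjusted p of 0.055. Spock1, Spock3 and Tnr were too low to test, and Ccn6 had no row.

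All 17 genes of the list of receptors and binding partners at the cell surface passed the test in each treatment, 14 of them higher and 3 lower, although with total-count scaling 1 was lower with vehicle and 2 with D + Q. Their median change was 0.90 and 0.94 on the log2 scale. Sdc1, a heparan sulfate proteoglycan that binds thrombospondins, went from 1.64 ± 0.304 to 18.5 ± 4.13 CPM (SD, n = 5) with vehicle, a log2 fold change of 3.50 ± 0.180 (edgeR adjusted p = 1.9e-09), and was higher by 2.90 ± 0.181 with D + Q (edgeR adjusted p = 3.3e-09). Itga5, the fibronectin receptor chain, was higher by 2.64 ± 0.124 with vehicle (edgeR adjusted p = 1.0e-09) and 2.47 ± 0.165 with D + Q (edgeR adjusted p = 1.5e-07). The receptors called lower with TMM scaling were Cacna2d1, the calcium channel subunit that binds thrombospondins, Cd36, the fatty acid transporter and thrombospondin receptor, and Itgb5. Cacna2d1 went from 459.1 ± 40.3 to 264.6 ± 20.2 CPM with vehicle, a log2 fold change of -0.79 ± 0.0821 (edgeR adjusted p = 1.2e-06), and stood at -0.71 ± 0.0817 with D + Q (edgeR adjusted p = 5.7e-07), and it also fell with total-count scaling. Cd36 stood at -0.44 ± 0.130 with vehicle (edgeR adjusted p = 0.0100), at -0.068 with total-count scaling, and at -0.65 ± 0.108 with D + Q (edgeR adjusted p = 0.00011). Cacna2d1 and Cd36 are expressed by myofibres or their capillaries as well. Of the 6 myofibre markers, 3 with vehicle and 4 with D + Q were lower in the same mice, and their part was not tested. Itgb5 passed the test at -0.20 and -0.28 and turned to 0.18 and 0.088 with total-count scaling, without passing it.

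In the TGF-beta list, 10 of 12 genes were higher and 1 lower with vehicle and 10 were higher with D + Q, by a median of 0.99 and 0.92 on the log2 scale. Ltbp2, a fibrillin-binding relative of the latent TGF-beta binding proteins, went from 0.176 ± 0.156 to 9.52 ± 1.71 CPM (SD, n = 5) with vehicle, a log2 fold change of 5.77 ± 0.346, and was higher by 4.22 ± 0.401 with D + Q (edgeR adjusted p = 1.7e-06). The vehicle sham mice had at most 6 counts each, so with vehicle Ltbp2 passed the count minimum only through its MOV mice and had to differ. Tgfb2 was lower by 0.31 ± 0.123 with vehicle (edgeR adjusted p = 0.040), but stood at 0.072 with total-count scaling. All 10 matrix partners (collagens, fibronectin, Bmp1 and Lox) were higher in each treatment, and their median was 4.89 with vehicle and 4.63 with D + Q on the log2 scale. Col12a1, a collagen of tendon and loaded tissue, was higher by 5.92 ± 0.327 (edgeR adjusted p = 2.3e-07) and 5.62 ± 0.277 (edgeR adjusted p = 1.1e-07), and Col1a1, the main fibrillar collagen chain, by 5.58 ± 0.207 (edgeR adjusted p = 1.4e-09) and 5.09 ± 0.374 (edgeR adjusted p = 2.6e-06).

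Thbs4 is known to act inside the cell on ATF6, a sensor of the endoplasmic reticulum, and a list of ATF6 and chaperone genes was therefore included. Of its 9 genes, 7 were higher and 1 lower with vehicle, and 8 were higher and 1 lower with D + Q. The median was 0.85 and 0.88 on the log2 scale. The disulfide isomerase gene Pdia4 was higher by 1.54 ± 0.136 (edgeR adjusted p = 3.0e-07) and 1.77 ± 0.121 (edgeR adjusted p = 5.7e-09). The secreted stress protein gene Manf was higher by 1.30 ± 0.200 with vehicle (edgeR adjusted p = 0.00015), and the chaperone partner Creld2 by 1.27 ± 0.115 with D + Q (edgeR adjusted p = 3.3e-08). Atf6 itself was lower by 0.25 ± 0.0794 (edgeR adjusted p = 0.015) and 0.28 ± 0.0679 (edgeR adjusted p = 0.0016), but stood at 0.13 and 0.085 with total-count scaling, without passing the test.

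**Figure D4:**
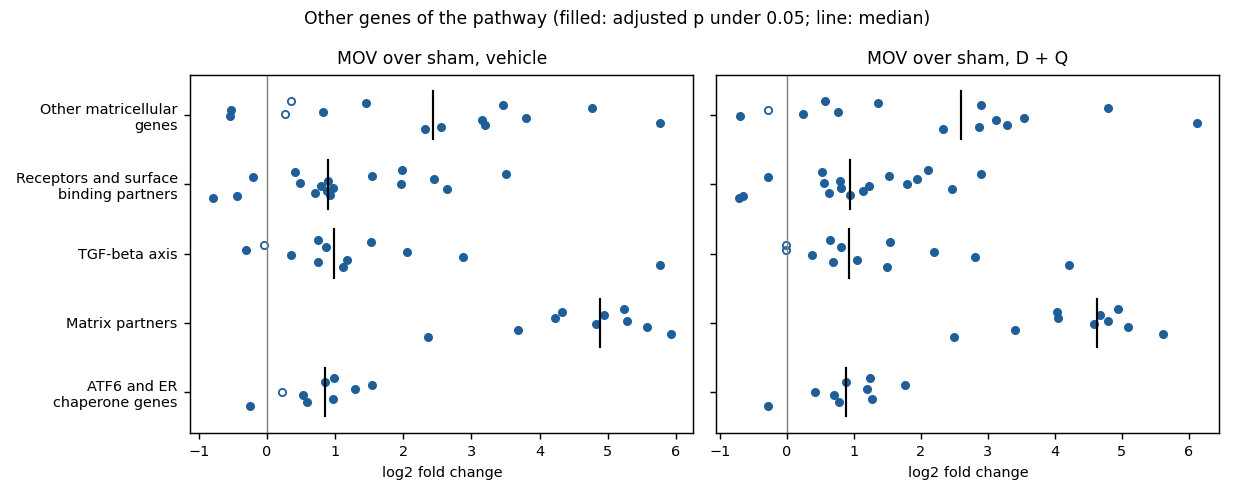
Log2 fold change of MOV over sham for each tested gene of 5 lists of pathway genes, with vehicle (left) and with D + Q (right), from 5 against 5 mice each. Filled points passed edgeR's test at an adjusted p under 0.05, open points did not, and the black line is the list median, which is highest for the matrix partners at 4.89 and 4.63.

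The second comparison asks what D + Q did in muscle that had not been overloaded. It uses the same sham mice as the first comparison. All 9 members that could be tested had fitted values above 0 with D + Q, by a median of 0.60 on the log2 scale against -0.0041 over all genes. Tnn was too low to test. Thbs1, Tnc and Comp had every D + Q mouse above every vehicle mouse. Thbs1 rested on the values given above, at most 6.11 CPM with vehicle and at least 7.22 CPM with D + Q, a log2 fold change of 0.81 ± 0.132. Tnc lay at or below 2.43 CPM with vehicle and at or above 2.49 CPM with D + Q, a log2 fold change of 0.94 ± 0.244, so that its groups were only just apart. Comp lay at or below 4.63 CPM with vehicle and at or above 4.67 CPM with D + Q, a log2 fold change of 0.73 ± 0.172, and its groups were also barely apart.

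Postn had the largest fitted value, 1.46 ± 0.692, but 2 of the 5 D + Q mice (4.13 and 6.09 CPM) lay inside the vehicle range. Without D + Q sham mouse 2, which had 42.4 CPM, the value was 0.92. The log2 fold change was 0.60 ± 0.138 for Thbs2, 0.40 ± 0.141 for Sparc, 0.37 ± 0.193 for Thbs3, 0.21 ± 0.0765 for Thbs4 and 0.095 ± 0.199 for Spon1, all with overlapping mice. D + Q sham mouse 1 was the lowest of its group for 6 members and mouse 2 the highest for 6. Of Tnn, 3 of 5 D + Q mice and 2 of 5 vehicle mice had any count, 22 counts in all against 4.

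By edgeR, 1 of the 9 members, Thbs1, was called higher at an adjusted p under 0.05, against 0.187% of all genes, and 3 of 9 did not overlap, against 1.35% of all genes. Nothing is read from these shares since treatment was among the contrasts the members were picked on. DESeq2 called 4 members (Thbs1, Thbs2, Comp and Tnc). The call of Thbs1 was lost, and no member was called, when all 20 mice were fitted together or when vehicle sham mouse 1, 2 or 3 or D + Q sham mouse 3 or 5 was left out, while its log2 fold change stayed between 0.73 and 0.89.

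None of the 60 pathway genes tested was called by edgeR between the sham groups, 24 passed at an unadjusted p under 0.05, as did 10.2% of all genes (1420 of 13926), and DESeq2 called 5. The median on the log2 scale was 0.73 for the matrix partners, 0.31 for the other matricellular genes, 0.18 for the TGF-beta list, 0.13 for the receptors and 0.0013 for the ATF6 and chaperone genes. Tendon markers summed to 41.1 to 60.4 CPM with vehicle and 57.5 to 79.3 CPM with D + Q, and fibroblast markers to 106.7 to 143.2 and 125.0 to 176.3 CPM. By edgeR 0 of 5 tendon and 0 of 5 fibroblast markers were called, with 3 and 2 at an unadjusted p under 0.05. Their part in the members' values was not tested.

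The third comparison asks what D + Q did in overloaded muscle. It shares its mice with the comparisons of MOV and sham. The fitted values of all 10 members were above 0, by a median of 0.28 on the log2 scale against 0.0020 over all genes, but the single mice of the groups overlapped for each of them. Of all genes, 0.853% were higher without overlap. Thbs1 (0.61 ± 0.342), Thbs2 (0.49 ± 0.175), Comp (0.44 ± 0.187) and Thbs3 (0.35 ± 0.153) had the largest log2 fold changes. They were followed by Spon1 (0.28 ± 0.165), Postn (0.28 ± 0.185), Sparc (0.25 ± 0.123) and Thbs4 (0.18 ± 0.129). Those of Tnc (0.16 ± 0.448) and Tnn (0.15 ± 0.338) were smaller than their errors. Vehicle MOV mouse 2 was below its group mean for 10 of 10 members and the lowest of its group for 9. Without it the value was 0.36 for Thbs2, 0.23 for Thbs3, 0.33 for Comp and 0.099 for Thbs4. Thbs1 rested in part on D + Q MOV mouse 5, which had 491.7 CPM, and stood at 0.32 without it. Without vehicle MOV mouse 4, which was the highest of its group for 7 members, the values were larger, at 0.86 for Thbs1, 0.60 for Comp, 0.45 for Thbs3 and 0.27 for Thbs4. Tnc ranged from -0.11 (without D + Q MOV mouse 3) to 0.32 and Postn ranged from 0.15 to 0.38 over single mice left out.

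**Figure D5:**
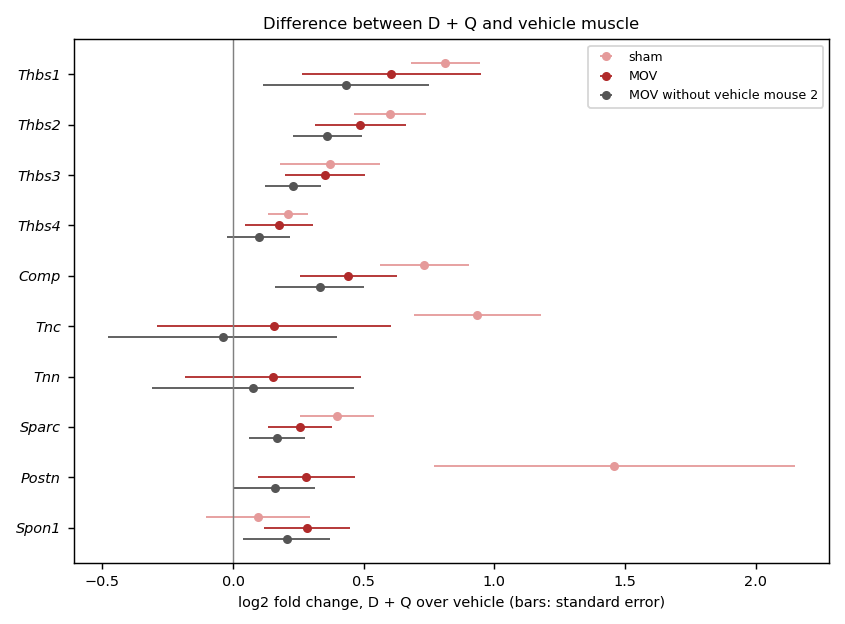
Log2 fold change of D + Q over vehicle in sham muscle (light red), in MOV muscle (dark red) and in MOV muscle without vehicle mouse 2 (grey), with standard errors. All points lie above 0 except that of Tnc without vehicle mouse 2, and Tnn is not shown for sham muscle because it was too low to test.

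None of the 10 members was called by edgeR, with 3 at an unadjusted p under 0.05, or by DESeq2. Of all genes, 0% were called by edgeR, with 1340 of 15238 at an unadjusted p under 0.05 (2634 without vehicle MOV mouse 4), and 11 were called by DESeq2. Among the 63 pathway genes tested none was called by edgeR or DESeq2 and 10 passed unadjusted, of which 7 were among the 10 matrix partners. The matrix partners had a median of 0.40 on the log2 scale, the other matricellular genes 0.23, the TGF-beta list 0.16, the ATF6 and chaperone genes 0.11 and the receptors 0.071. Tendon markers summed to 153.4 to 225.9 CPM with vehicle and 224.8 to 316.1 CPM with D + Q, with 0 of 5 called by edgeR and 2 at an unadjusted p under 0.05. Fibroblast markers summed to 330.6 to 730.8 and 524.5 to 606.0 CPM and macrophage markers to 188.5 to 580.2 and 436.1 to 522.2 CPM, with 0 of 5 called by edgeR in each list and 0 and 1 at an unadjusted p under 0.05. Their part in the members' values was not tested.

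The last comparison asks whether the rise with MOV differed between D + Q and vehicle. It was estimated in a single edgeR fit of all 20 mice. If the sham mice had their second gavage on day 14, its timing cannot be told apart from surgery in this difference. The difference is built from the overload and treatment values on which members had been picked, so for the members it is a description as well. Tnn entered the fit almost only through its MOV mice. None of the 10 was called by edgeR, with 0 of 10 at an unadjusted p under 0.05, or by DESeq2. Of all 15700 genes, 0.0127% were called by edgeR, with 897 at an unadjusted p under 0.05. The difference (D + Q rise minus vehicle rise, log2) was -1.19 for Postn, with a 95% interval from -2.64 to 0.26. It was -0.78 for Tnc (-2.25 to 0.69) and -2.04 for Tnn (-5.34 to 1.26), where the intervals allow large differences either way. It was -0.21 for Thbs1 (-1.14 to 0.72), -0.12 for Thbs2 (-0.66 to 0.43), -0.026 for Thbs3 (-0.61 to 0.56) and -0.30 for Comp (-0.89 to 0.29). The tightest were Thbs4 at -0.039 (-0.37 to 0.30) and Sparc at -0.15 (-0.55 to 0.25). Spon1 stood at 0.18 (-0.44 to 0.80), the only value above 0. No pathway gene of 63 was called by edgeR or DESeq2, with 2 at an unadjusted p under 0.05, and Ltbp2, with a difference of -1.59, had an edgeR adjusted p of 0.82.

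The members differed in how much they varied between mice of a group. The biological coefficient of variation from the fit of all 20 mice was 55.6% for Tnn, 53.7% for Postn, 41.1% for Tnc and 30.3% for Thbs1. The trend that edgeR fitted at their abundance was 10.7% to 13.8%, which is not the spread of a typical gene. Among the 15700 genes of the fit, Thbs4 stood at percentile 47.5, Sparc at 54.4, Thbs1 at 83.1 and Tnn at 98.2. Thbs4 at 13.0% and Sparc at 15.1% were close to the trend at their abundance (11.1% and 11.4%), and Thbs2, Thbs3, Comp and Spon1 lay between 19.2% and 21.4%. Within groups some pairs of members moved together and others did not. Over 45 pairs the correlation of deviations from the group means (20 mice, Pearson's r) had a median of 0.52. It ran from -0.023 for Comp and Postn to 0.84 for Tnn and Postn, and pairs of other genes were not compared. Without vehicle MOV mouse 2 the median was 0.42. In the same mice, vehicle sham mouse 4 lay above its group mean for 10 of 10 members, D + Q MOV mouse 5 did so as well, and D + Q MOV mice 1 and 2 lay below theirs for 10 of 10.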

How the data were processed

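RNA-seq of plantaris muscle was analysed for 20 mice, 5 in each of 4 groups taken from the labels. Per the submitters' processing notes and the study's methods, the authors aligned reads with STAR 2.7.8a to GRCm39, estimated the count of each gene with Partek's expectation-maximization quantifier and deposited these expected counts without normalization. Every row sums to at least 10, and 29.8% of values are not whole. Library preparation by strand is not given in the sources used here. Expected counts were rounded before testing.

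Differences were tested in R 4.3.3 by the robust quasi-likelihood method of edgeR 4.0.16 with TMM factors. A gene entered a fit where 5 or more of its mice had 10 or more counts, and p-values were adjusted by Benjamini-Hochberg over every gene of that fit, with a threshold of 0.05. A pair of groups used only its 10 mice, and the interaction used all 20. A standard error is the log2 fold change divided by the square root of its F value. The series' design gives 5 mice per group, so each library was taken as a mouse, and no pair within a group differed by as little as sampling noise (40 pairs, variance at least 6.53 times the counting variance). Depth limits the low genes, and intervals of ratios cover counting error only.

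The alternatives were DESeq2 1.42.0, RLE factors, total counts only, no filter on low counts, limma-voom (limma 3.58.1) with sample quality weights, all 20 mice in 1 fit, the replicate number as a block, and omission of single mice. The members and the lists were chosen with earlier results of these data known, and so were the tests. Named from each list are the genes called with the largest rises and falls, up to 2 each way per comparison, and for each member the 3 genes with the highest correlation. Itgb5 and Chad were named after their values were seen. A gene of the TGF-beta list and a gene alike to Comp that these rules select are not reported here. RPKM used the union of exons of GENCODE for GRCm39.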

Additional observations from a re-analysis of the deposited data

Results flagged for a closer look

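For each of the 10 genes in each of the 4 groups, the distance of the highest or lowest mouse from its nearest neighbour was set against the range of the group (Dixon's test, critical value 0.71 for 5 mice). Of these 40 sets of 5 mice, 3 exceeded it, and about 5% would by chance. Thbs1 reached 491.7 CPM in D + Q MOV mouse 5, where the other 4 mice lay between 220.1 and 256.0 CPM. Thbs3 reached 9.09 CPM in vehicle sham mouse 4, where the others lay between 4.27 and 5.46 CPM. Postn stood at 959.4 CPM in vehicle MOV mouse 2, where the others lay between 1526 and 1753 CPM.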

How the results depend on the processing

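In MOV against sham the 10 members kept their direction and were called under each of the 7 alternatives in both treatments. Leaving out each mouse in turn left 9 to 10 called with vehicle, since Tnn failed the count minimum whenever a vehicle MOV mouse was left out, and 10 with D + Q. In sham muscle the 30 genes called between D + Q and vehicle became 133 with DESeq2, 49 with total counts only, 67 without a filter, 19 with all 20 mice in 1 fit and 19 with the replicate block. With each mouse left out they ranged from 2 (without D + Q sham mouse 3 or 5) to 74 (without vehicle sham mouse 5), and were 3 without vehicle sham mouse 1, 2 or 3, 15 without mouse 4 and 12 without D + Q sham mouse 2. The member count of 1 became 4 with DESeq2, 3 without a filter and 0 with all 20 mice, and 0 to 2 with a mouse left out (2 without D + Q sham mouse 1). The pathway count of 0 became 5 with DESeq2 and 0 to 1 with a mouse left out. In MOV muscle the 0 genes called became 11 with DESeq2, 2 with the replicate block and 0 to 2 with a mouse left out (2 without vehicle MOV mouse 4). For the interaction the 2 genes became 1 with the replicate block and 2 to 3 with a mouse left out. The correlation of deviations of mice with the same replicate number ran from -0.15 to 0.19 and in no comparison exceeded 0.1 for all pairs. The deposited column names number sham and MOV mice differently from these replicate numbers. Sham and MOV mice with the same column number were therefore not compared, and pairing by those numbers was not tested. The block changed no member's call. The interaction of Thbs4 turned to 0.010 with limma-voom. With a mouse left out it ranged from -0.13 to 0.066 for Thbs4, from -0.26 to 0.082 for Thbs3, from -0.26 to 0.016 for Thbs2 and from -0.50 to 0.054 for Thbs1, none of them called. Between D + Q and vehicle the sign of Spon1 in sham and of Tnc and Tnn in MOV muscle changed under 2, 4 and 3 of 17 alternatives. Causes were not tested. Depth limits Tnn most, with 4 counts in all vehicle sham mice.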

Other observations

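Ratios between members, taken per length and within a mouse, do not depend on library scaling. Postn stood at 0.0302 ± 0.0171 (SD, n = 5) of the Sparc level in vehicle sham mice and at 0.505 ± 0.0445 in vehicle MOV mice. With D + Q the ratio was 0.0578 ± 0.0376 in sham and 0.511 ± 0.0749 in MOV muscle. Single MOV mice lay between 0.437 and 0.551 with vehicle and between 0.443 and 0.633 with D + Q. Tnc stood at 0.00839 ± 0.00235 of the Sparc level in vehicle sham, 0.0127 ± 0.00362 in D + Q sham, 0.0594 ± 0.0182 in vehicle MOV and 0.0546 ± 0.0257 in D + Q MOV mice. Thbs1 stood at 0.0764 ± 0.0132 of the Thbs4 level in vehicle sham, 0.116 ± 0.0199 in D + Q sham, 0.172 ± 0.0493 in vehicle MOV and 0.233 ± 0.0694 in D + Q MOV mice.

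The genes whose levels followed each member most closely are given with Pearson's r of log2 CPM over the 20 mice, as a description. Most of this r comes from the gap between sham and MOV mice, which all of these genes share, so the r of deviations from the group means is given as well. Thbs1 was most like Emp1 (0.997), Igsf10 and Medag over all mice, and in its deviations most like Hsp90b1 (0.935), Ccn2 (0.911) and Csf2ra (0.887). Thbs2 was most like Lox (0.997), Sparc and Olfml2b, and in its deviations like Adm (0.886), Lox and Lrrc17. Thbs3 was most like Olfml2b (0.996), Col1a2 and Vim, and in its deviations like Unc93b1 (0.932), the macrophage marker Mrc1 (0.909) and the complement gene C1qb (0.906). Thbs4 was most like Lox (0.997), Col8a1 and Sparc, and in its deviations like Ppp1r9b (0.865), Mtss1 and Dtymk. Comp was most like Chd3 (0.988), Mrc2 and P3h3, and in its deviations like Rpl12 (0.862) and Zfp472. Tnc was most like Rcn1 in both (0.993 and 0.884), with Nlgn2 and Map4k4 over all mice and Sinhcaf and Phldb2 in the deviations. Tnn was most like Postn (0.993), Col1a1 and P4ha3, and in its deviations like Sox11 (0.862), P4ha3 and Col1a1. Sparc was most like Lox (0.999), Col1a2 and Aspn, and in its deviations like Aspn (0.932), Col1a2 (0.932) and Fcrls (0.924). Postn was most like P4ha3 in both (0.996 and 0.944), with Cthrc1 and Lrrc15 over all mice and Lrrc15 and Gm13835 in the deviations. Spon1 was most like Capn6 (0.992), Slc38a10 and Mest, and in its deviations like Sec31a (0.879), Gria3 and Capn6.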
